A study of Homo sapiens with 6 samples.

Results

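The genes described here encode the proteins of the mitochondrial ribosome and were chosen by name: every protein-coding gene whose symbol is MRPL or MRPS followed by a number, with an optional letter. The rule found 78 genes among the 60660 gene IDs measured. Of these, 49 carry a large subunit symbol (MRPL) and 29 a small subunit symbol (MRPS). They were followed in RNA-seq of OCI-AML3, a human cell line established from acute myeloid leukaemia. The 3 libraries of the SLC2A3 group came from cells that overexpress SLC2A3, which encodes the glucose transporter GLUT3. The 3 libraries of the empty vector group came from cells carrying the pLenti vector without the gene, per the titles and genotype labels. All 6 libraries came from cells given 250 µM vitamin C, so no group shows these genes without it. The labels do not say whether the transduced cells were a pool or a single clone.

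Mitochondria keep ribosomes of their own, which translate the few proteins that mitochondrial DNA encodes, most of them subunits of the respiratory chain and ATP synthase. The ribosomal RNAs are transcribed in the organelle, whereas every protein of the particle is encoded in the nucleus, made in the cytosol and imported. The large subunit joins amino acids and sends the chain out through a tunnel, and the small subunit reads the messenger. Many of the proteins descend from bacterial ribosomal proteins, while others occur only in mitochondrial ribosomes. Acute myeloid leukaemia cells are known for their reliance on oxidative metabolism and mitochondrial translation.

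Recovered reads summed to 35770556, 34590069 and 31054462 in the SLC2A3 libraries and to 32581096, 33162128 and 33073173 in the empty vector libraries. SLC2A3 itself had 4056, 3716 and 4054 normalised reads in the SLC2A3 libraries, against 1194, 1183 and 1257 in the empty vector libraries, a log2 change of 1.70 (SE 0.057, limma adjusted p = 7.95e-18), in the direction of the labels. All 10 myeloid markers had reads in both groups, with summed levels of 128914 to 135780 normalised reads in SLC2A3 libraries and 116974 to 121456 in empty vector libraries. The lowest was CD68, with means of 25.8 in SLC2A3 cells and 31.6 in empty vector cells. Of the 10, PRTN3 was higher in limma (34055 ± 1942 and 23111 ± 295, SD, n = 3 each; log2 change 0.56, adjusted p = 1.67e-10) and 0 were lower. CD33 had 2475 ± 57.7 and 2564 ± 92.3. The T cell genes CD3D and CD3E, the B cell gene MS4A1 and the haemoglobin genes HBA1 and HBB had 0 reads in every library. The summed level of 6 epithelial and fibroblast markers was 81.7 to 95.9 normalised reads in the SLC2A3 libraries and 44.1 to 60.01 in the empty vector libraries, and 0 of 5 tested passed the threshold in limma, with 1 at an unadjusted p under 0.05, and 0 of 3 in edgeR, while DESeq2 gave none an adjusted p. RN7SL1, the RNA of the signal recognition particle, was at 2233, 6026 and 1922 normalised reads in the SLC2A3 libraries and at 538, 1812 and 705 in the empty vector libraries. Its log2 change was 1.74 (SE 0.29, limma adjusted p = 0.000861), past the threshold. The part of any of these in the changes below was not tested. Counts of genes past the threshold and above 0 are also given without both libraries numbered 2, which hold the highest RN7SL1 of their group. In the libraries kept, RN7SL1 was still higher in the SLC2A3 group (2233 and 1922) than in the empty vector group (538 and 705). Those counts are therefore no test of its part.

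Expression of the family was slightly higher in SLC2A3-overexpressing cells, and the 5 genes past the threshold all rose. These were MRPL12, MRPL23 and MRPL41 of the large subunit and MRPS9 and MRPS26 of the small one, with fold changes between 1.19 and 1.29. The comparison asks whether raised SLC2A3 expression goes with a change in the messengers of the mitochondrial ribosome. Each normalised read count is the gene's reads divided by 1 factor for its library. The log2 change is the limma estimate on log2(value + 1), SLC2A3 over empty vector, so a positive value means higher in SLC2A3 cells. A gene passed the threshold at a Benjamini-Hochberg adjusted p under 0.05 over all 28015 genes tested. Since the RNA came from bulk cultures, more cells expressing a gene and more of its RNA per cell cannot be told apart.

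Of the 78 genes, 77 had enough reads to be tested, 48 of the large and 29 of the small subunit. In limma 5 of the 77 (6.49%) were higher in SLC2A3 cells, where 0.692% of all tested genes were. Counting both directions, 1.49% of all tested genes passed. In edgeR 6 genes of the family were higher, where 1.53% of the genes it tested were, and in DESeq2 6 were, where 3.49% of its genes with an adjusted p were. No gene of the family was lower: the count was 0 in limma, where 0.8% of all genes were lower, 0 in edgeR (1.76%), 0 in DESeq2 (4.49%) and 0 at an unadjusted p under 0.05 in limma (6.12%). At an unadjusted p under 0.05, 26 (33.8%) were higher, against 5.63% of all genes. In 27 genes (35.1%) every SLC2A3 library lay above every empty vector library, against 8.04% of all genes, and in 0 genes the reverse held, against 8.27%. Among the 9294 genes with a mean of 200 to 6000 normalised reads, which is closer to the range of this family, 1.28% passed the threshold as higher, 10.1% had SLC2A3 libraries wholly above the empty vector ones, and 45.9% had a log2 change above 0.

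The shift was broad and small. A log2 change above 0 was found in 65 of the 77 genes (84.4%), against 50.3% of all genes, with a median of 0.081 beside a median of 0.0014 over all genes. The middle of the family ran from 0.031 at the lower quartile to 0.14 at the upper. With both libraries numbered 2 left out 5 genes were past the threshold in limma, MRPL55 in place of MRPL41 (adjusted p = 0.0769). The count of genes above 0 was the same, 65, with both libraries numbered 2 left out, and lay between 60 and 66 when any 1 library was left out. The genes share the 6 libraries and are not replicates of each other, so these shares carry no test.

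**Figure D1:**
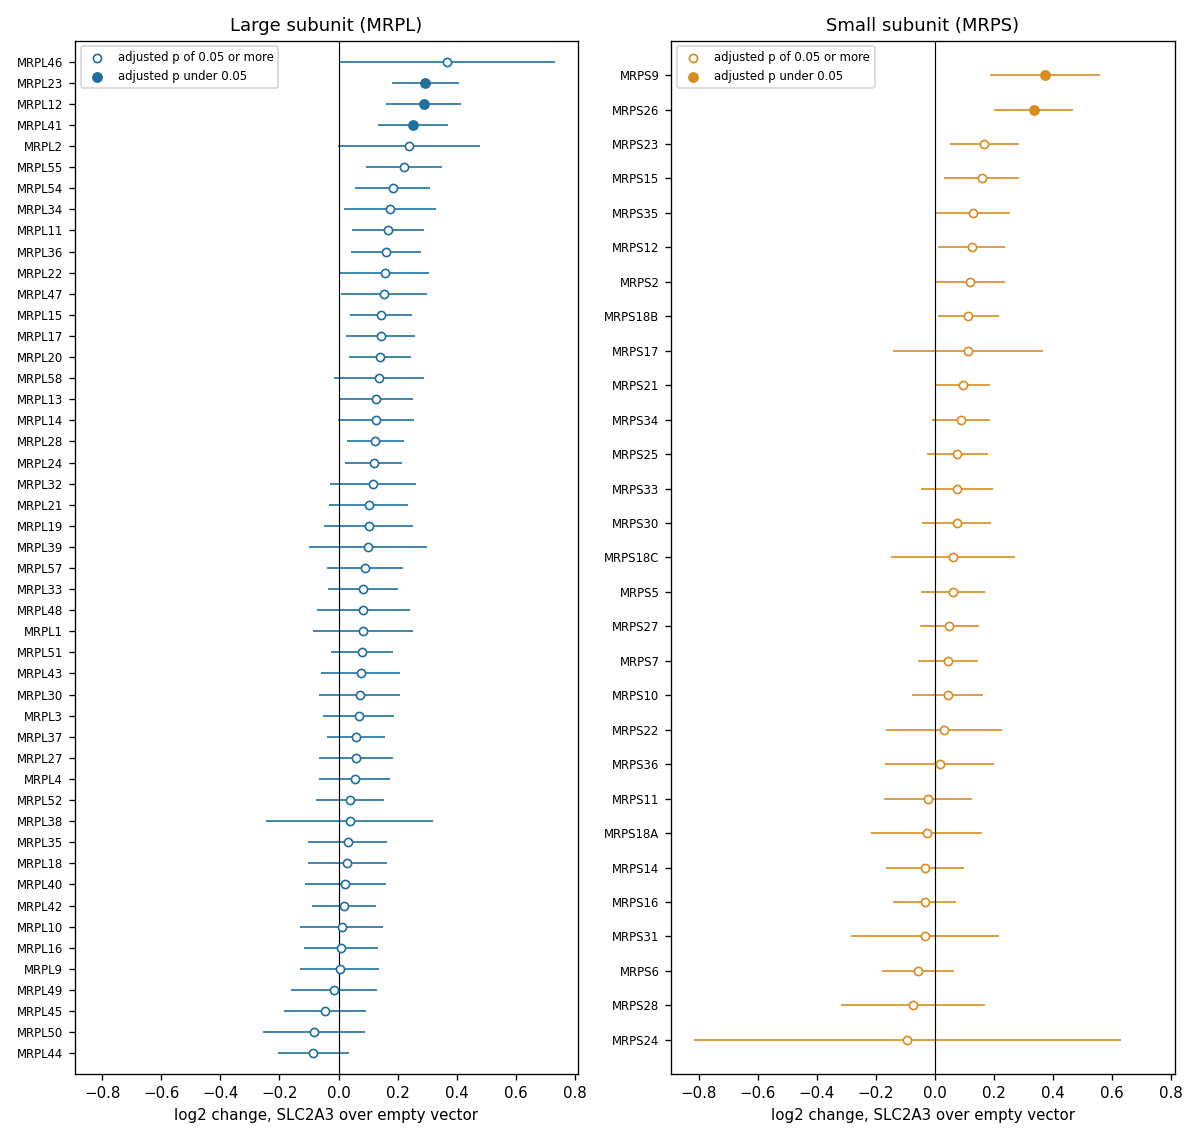
Log2 change of each of the 77 tested genes, SLC2A3 over empty vector, with its 95% confidence interval from limma, for the large subunit on the left and the small subunit on the right. Filled points are the 5 genes with an adjusted p under 0.05. Most intervals cross 0, 65 of the 77 points lie to its right, and the widest interval is that of MRPS24.

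In the large subunit, MRPL12 is the protein of the flexible stalk that recruits translation factors, the counterpart of bacterial L7/L12, and has also been described as a partner of the mitochondrial RNA polymerase. Its gene lies at chr17:81703357-81707526 on the plus strand (GRCh38, GENCODE 29). It had 2128, 2299 and 2032 normalised reads in the SLC2A3 libraries, against 1657, 1869 and 1761 in the empty vector libraries. All SLC2A3 libraries were above all empty vector libraries. The means were 2153 ± 135 and 1763 ± 106 (SD, n = 3 each), and the log2 change was 0.29 (SE 0.062, limma adjusted p = 0.0106). A gene model that covers 68.2% of the MRPL12 exon bases on the same strand had 0 reads, so the split of reads between them is uncertain. The call was lost without SLC2A3 replicate 2 (limma adjusted p = 0.0799) and without empty vector replicate 1 (0.0769).

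MRPL23 sits at the mouth of the peptide tunnel, where in bacteria its relative L23 docks factors that meet the new chain. Its gene lies at chr11:1947278-1984522 on the plus strand. It had 5705, 6147 and 5389 normalised reads in SLC2A3 libraries, against 4537, 5151 and 4386 in empty vector libraries. The groups did not overlap, and replicate 2 was the highest library of both. The means were 5747 ± 381 and 4691 ± 405 (SD, n = 3 each), a log2 change of 0.29 (SE 0.056, limma adjusted p = 0.00331), the lowest adjusted p of the family. The gene stayed past the threshold in each of the 21 alternative fits.

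MRPL41 is a large subunit protein with no bacterial counterpart. Its gene lies at chr9:137551199-137552555 on the plus strand, and at 71.9% GC its longest transcript is rich in G and C. It had 2848, 3066 and 2643 normalised reads in SLC2A3 libraries, against 2459, 2421 and 2294 in empty vector libraries. The groups did not overlap, although SLC2A3 replicate 3 and empty vector replicate 1 were less than 1 SD of the SLC2A3 group apart. The means were 2852 ± 211 and 2391 ± 86.6 (SD, n = 3 each), a log2 change of 0.25 (SE 0.058, limma adjusted p = 0.0172). With a trend in exon length and GC content removed within each library the change was 0.15 and the call was lost (limma adjusted p = 0.145). It was also lost without SLC2A3 replicate 1 (0.0531), SLC2A3 replicate 2 (0.125) or empty vector replicate 3 (0.119).

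In the small subunit, MRPS26 is a protein found in mitochondrial ribosomes and not in bacterial ones. Its gene lies at chr20:3045945-3048254 on the plus strand. It had 1864, 1980 and 1691 normalised reads in SLC2A3 libraries, against 1436, 1530 and 1416 in empty vector libraries. The gap between the groups was wider than the spread within the empty vector group. The means were 1845 ± 146 and 1461 ± 61.0 (SD, n = 3 each), a log2 change of 0.33 (SE 0.065, limma adjusted p = 0.0041). Like MRPL23, it passed the threshold in all 21 alternative fits.

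MRPS9 is the counterpart of bacterial S9, whose tail reaches the transfer RNA at the decoding site. Its gene lies at chr2:105037983-105099960 on the plus strand. It had 582, 582 and 603 normalised reads in SLC2A3 libraries, against 487, 471 and 410 in empty vector libraries. The SLC2A3 libraries lay close together, and empty vector replicate 3 was the lowest of the 6. The means were 589 ± 12.3 and 456 ± 40.3 (SD, n = 3 each), a log2 change of 0.37 (SE 0.091, limma adjusted p = 0.0277). The call was lost without SLC2A3 replicate 1 (0.0607), replicate 2 (0.0740) or replicate 3 (0.163), and without empty vector replicate 3 (0.228, log2 change 0.30), all limma adjusted p.

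**Figure D2:**
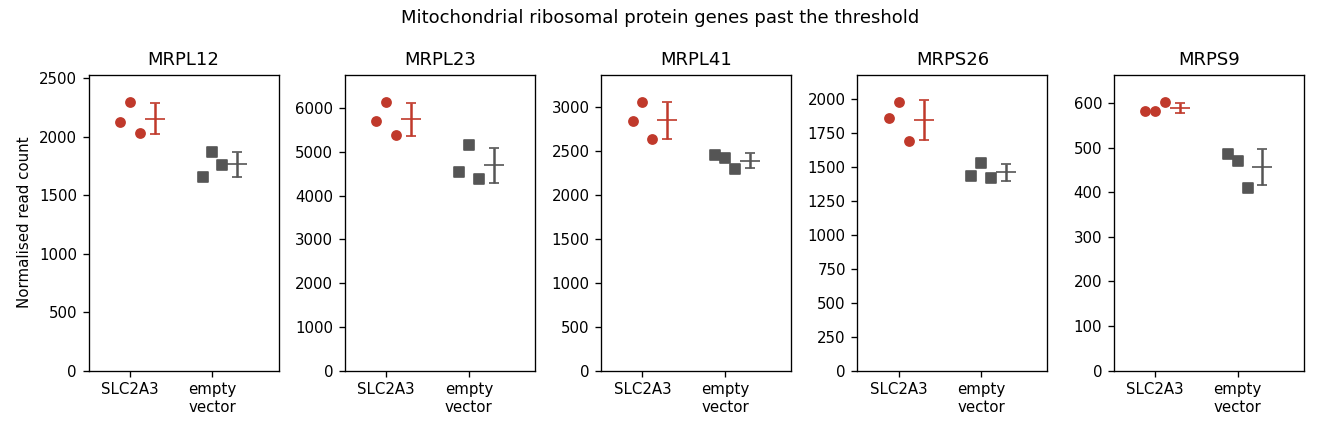
Normalised read count (linear axis from 0, a separate scale for each gene) of the 5 genes past the threshold in the 3 SLC2A3 libraries (red circles) and the 3 empty vector libraries (grey squares), with the mean and SD beside each group. In every panel the lowest SLC2A3 library is above the highest empty vector library.

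Between the genes past the threshold and the rest there was no clear edge. MRPL46, a mitochondria-specific protein of the central protuberance, had a change as large as that of MRPS9 but few reads. It had 122, 114 and 129 normalised reads in SLC2A3 libraries, against 98.8, 91.0 and 92.1 in empty vector libraries, a log2 change of 0.37 (SE 0.178, limma adjusted p = 0.421). The groups did not overlap, but the 95% interval ran from 0.00 to 0.73. MRPL55, another large subunit protein, is named here after its values were seen because the tools differed on it. It had 1559, 1534 and 1562 normalised reads in SLC2A3 libraries, against 1284, 1414 and 1301 in empty vector libraries, with a log2 change of 0.22 (SE 0.063). Its adjusted p was 0.0799 in limma and 0.023 in DESeq2, and edgeR also placed it just past the threshold, so that edgeR and DESeq2 each called 6 genes of the family.

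No gene of the family fell past the threshold. The 6 most negative log2 changes were −0.093 for MRPS24, −0.086 for MRPL44, −0.084 for MRPL50, −0.074 for MRPS28, −0.058 for MRPS6 and −0.046 for MRPL45. MRPL44 carries a fold related to ribonuclease III, MRPL45 helps to hold the ribosome at the inner membrane, and MRPS6 and MRPS24 have bacterial relatives. MRPL44 had 1838, 2044 and 1888 normalised reads in SLC2A3 libraries, against 2086, 2018 and 2013 in empty vector libraries, so its groups overlapped (limma adjusted p = 0.64). MRPS24 had 38.1, 29.7 and 21.4 normalised reads in SLC2A3 libraries, against 29.5, 40.0 and 25.03 in empty vector libraries, and its 95% interval ran from −0.82 to 0.63, too wide to give a direction. For the family as a whole the precision was higher. In 62 of the 77 genes the 95% interval lay within a log2 change of −0.3 to 0.3, and the median half-width of the interval was 0.13.

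Genes of both subunits lay mostly above 0. In the large subunit 44 of 48 tested genes (91.7%) had a log2 change above 0, with a median of 0.094, and 3 passed the threshold. In the small subunit 21 of 29 (72.4%) were above 0, with a median of 0.061, and 2 passed. Non-overlapping groups with SLC2A3 higher were found in 18 large subunit genes (37.5%) and 9 small subunit genes (31.0%). With both libraries numbered 2 left out the medians were 0.098 and 0.091, so the gap between the subunits was then small. Whether the subunits differ was not tested.

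Summed over the large subunit, the genes had 91773, 92189 and 90033 normalised reads in SLC2A3 libraries, against 84743, 86688 and 82818 in empty vector libraries. The small subunit genes summed to 55535, 55481 and 55881 in SLC2A3 libraries, against 52382, 53530 and 52056 in empty vector libraries. Neither sum overlapped between the groups, and the ratio of the means was 1.08 for the large and 1.06 for the small subunit. As a share of all normalised reads in a library, the family made up 0.443 ± 0.0027% in SLC2A3 cells and 0.414 ± 0.0078% in empty vector cells (SD, n = 3 each).

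The balance between the subunits overlapped between the groups. The ratio of small to large subunit sums was 0.605, 0.602 and 0.621 in SLC2A3 libraries, against 0.618, 0.617 and 0.629 in empty vector libraries. Means were 0.609 ± 0.0101 and 0.621 ± 0.0062 (SD, n = 3 each), a difference that SLC2A3 replicate 3 spans. Of the 77 genes, 55, 59 and 53 lay above their own mean over the 6 libraries in the SLC2A3 libraries, and 20, 36 and 16 did so in the empty vector libraries. Empty vector replicate 2 was thus nearest to the SLC2A3 libraries, and empty vector replicate 3 farthest from them.

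**Figure D3:**
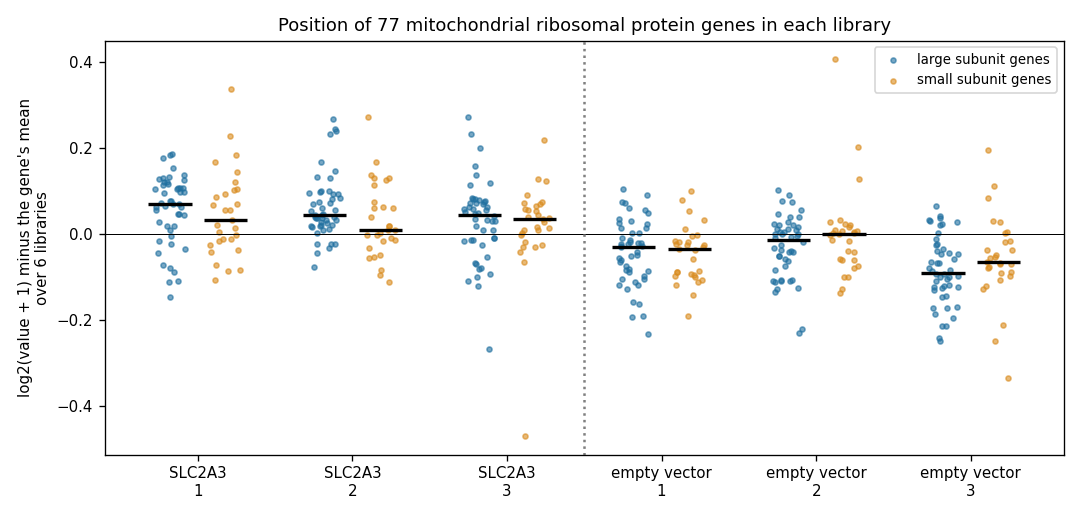
Each point is 1 of the 77 tested genes in 1 library, placed by its log2(value + 1) minus its mean over the 6 libraries; large subunit genes are blue, small subunit genes orange, and black bars are medians. The medians of the 3 SLC2A3 libraries lie above 0 (0.044 to 0.072 for the large subunit), while those of the large subunit in the empty vector libraries lie between −0.089 and −0.013.

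Some symbols do not tell where a protein sits. MRPS30 and MRPS18A carry small subunit symbols, yet their proteins were placed in the large subunit once structures of the mammalian particle were solved. MRPS30 had 2081 ± 115 normalised reads in SLC2A3 cells and 1976 ± 16.4 in empty vector cells, a log2 change of 0.073 (SE 0.058). MRPS18A had 538 ± 48.5 and 548 ± 38.7 (SD, n = 3 each), with a log2 change of −0.027. Counting both by structure, the ratio of small to large subunit sums was 0.563, 0.555 and 0.576 in SLC2A3 libraries, against 0.572, 0.572 and 0.580 in empty vector libraries, which again overlapped.

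MRPS18B and MRPS18C are the paralogues of MRPS18A that stayed in the small subunit. MRPS18B was the most abundant of the 3 with 3833 ± 110 normalised reads in SLC2A3 cells and 3544 ± 142 in empty vector cells, a log2 change of 0.11 (limma adjusted p = 0.348). MRPS18C had 420 ± 52.0 and 400 ± 15.9 (SD, n = 3 each) and a log2 change of 0.061. The product of MRPS36 is now regarded as a subunit of the oxoglutarate dehydrogenase complex and not of the ribosome. It had 524 ± 42.0 normalised reads in SLC2A3 cells and 518 ± 4.35 in empty vector cells, a log2 change of 0.015 with a 95% interval from −0.17 to 0.20.

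Grouped by site in the large subunit, with the sites chosen after the values were seen, the genes around the stalk had the highest median change. MRPL10 and MRPL11 form the base of the stalk, with MRPL12, MRPL53 and MRPL54 beside them. The 4 tested genes of this site had a median log2 change of 0.18, from 0.011 for MRPL10 to 0.29 for MRPL12, and MRPL12 was the 1 past the threshold. Of 8 genes around the peptide exit, MRPL23 was past the threshold and the median was 0.13. The 7 genes of the central protuberance all had changes above 0, with a median of 0.058. Of these, 0 passed in limma, where 2 reached an unadjusted p under 0.05, and edgeR and DESeq2 each called 1, MRPL55.

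Levels within the family spanned a wide range when scaled to gene length. Per kilobase of exon, averaged over the 6 libraries, MRPS34 had 3892 normalised reads, MRPS21 3273, MRPL24 2682 and MRPL15 2429. MRPS34 is a mitochondria-specific protein, while the other 3 have bacterial relatives. At the low end MRPS18C had 84.3 normalised reads per kilobase, MRPL38 had 60.8, MRPL46 had 16.8 and MRPS24 had 11.7. The medians were 686 for the large and 423 for the small subunit. This order depends on the transcript taken: with the principal transcript in place of all exons, MRPL23 was the highest at 7091, and 2 of the 4 highest and 3 of the 4 lowest genes were shared with the order by all exons.

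The highest and lowest genes differed in how far the groups lay apart. Per kilobase of exon, MRPS34 had 4012 normalised reads in SLC2A3 cells and 3772 in empty vector cells, and MRPS21 had 3379 and 3166. MRPL46 had 18.9 in SLC2A3 cells and 14.6 in empty vector cells, and MRPS24 had 11.4 and 12.1. Over the 77 genes the log2 change had a Spearman correlation of 0.15 with the mean level, given as a description since the genes share their libraries. Of the 77 genes, 57 had a mean over 1000 normalised reads, and in 50 of those the 95% interval lay within −0.3 to 0.3.

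**Figure D4:**
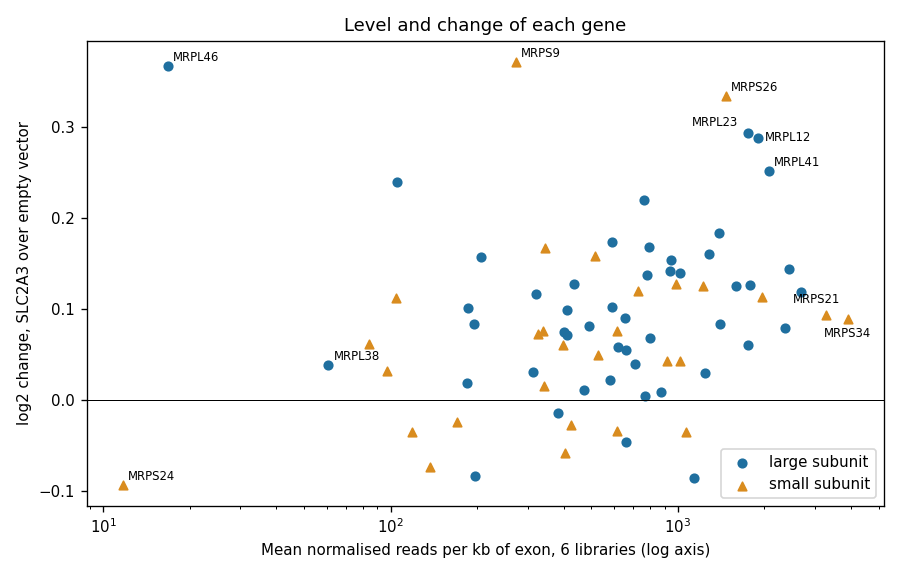
Mean level of each tested gene in normalised reads per kilobase of exon (log axis) against its log2 change, SLC2A3 over empty vector; blue circles are large and orange triangles small subunit genes. Named are the 5 genes past the threshold and 5 genes at the extremes of level. Genes past the threshold lie from 273 normalised reads per kilobase (MRPS9) to 2078 (MRPL41).

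Base composition moved with the change. Of the 5 genes past the threshold, 4 had a GC content over 60% in their longest transcript, as did 11 of the 77 tested. Across the 77 genes the log2 change had a Pearson correlation of 0.34 and a Spearman correlation of 0.31 with GC content, as a description. The 26 genes of lowest GC had a median log2 change of 0.070 and the 26 of highest GC 0.12. After the trend in exon length and GC content was removed within each library, the medians were 0.035 and 0.12. The Spearman correlation with GC content was then 0.39, so it was not lower than before. With the trend removed 60 of 77 genes were above 0, and 5 were past the threshold in limma, with MRPL55 in place of MRPL41.

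MRPL53, a protein beside the stalk, had 0 reads in all 6 libraries. Of its exon bases, 45.2% are shared on the same strand with CCDC142, which had 1127 ± 130 normalised reads in SLC2A3 cells and 1087 ± 39.2 in empty vector cells (SD, n = 3 each). The labels do not say how reads shared by both genes were counted, so its 0 cannot be read as absence of the transcript. MRPS24 shares 23.2% of its exon bases with a read-through gene, URGCP-MRPS24, which also had 0 reads. MRPL38 and MRPS28 share 37.5% and 35.8% of their exon bases with another gene model on the same strand, so their values are uncertain too. Exons of 16 genes of the family overlap another gene on the same strand and those of 29 overlap one on the opposite strand. Values of MRPS18A and MRPS18C, with 47.0% and 40.2% of exon bases opposite another gene, are uncertain in this sense, because use of strand in counting is not stated either. Processed copies took few reads: 79 pseudogene IDs of the family held 0.102% as many reads as the genes. Of the 17 tested 0 passed the threshold in limma, where 1.49% of all tested genes did. The copy with the most, MRPS18AP1, had 51.0 normalised reads, 9.38% of the level of MRPS18A. MRPL53P1 had 19.5 normalised reads, although MRPL53 itself had 0.

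Promoter sequences are shown for the genes past the threshold, since the members of this family are known targets of shared promoter-binding factors. RefSeq promoters (GRCh38.p14, 250 bases before to 50 after the start) matched 69 of the 78 genes. MRPL10, MRPL13, MRPL15, MRPL2, MRPL21, MRPL23, MRPL35, MRPS28 and MRPS36 had no entry. The first listed start was used for 11 genes with more than 1. The lines give the 100 bases before the RefSeq start, 5′ to 3′ on the gene's strand. They lie at chr17:81703267-81703366 for MRPL12, chr9:137551779-137551878 for MRPL41, chr20:3045952-3046051 for MRPS26 and chr2:105037969-105038068 for MRPS9, all on the plus strand. The GENCODE genes, with coordinates given above, start at other positions. By GENCODE the MRPL41 and MRPS26 lines lie wholly inside the gene, the MRPS9 line mostly, and the MRPL12 line in its last bases. Part of the sequence shown may thus be transcribed, and which start these cells use was not tested. Capitals mark matches to the motifs searched, on either strand.
MRPL12: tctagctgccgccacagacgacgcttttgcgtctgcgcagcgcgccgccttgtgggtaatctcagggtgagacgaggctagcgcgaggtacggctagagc
MRPL41: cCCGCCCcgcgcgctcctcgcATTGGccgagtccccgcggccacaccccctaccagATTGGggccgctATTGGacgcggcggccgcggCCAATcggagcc
MRPS26: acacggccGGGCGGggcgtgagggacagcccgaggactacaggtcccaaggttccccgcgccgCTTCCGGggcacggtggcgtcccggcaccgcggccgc
MRPS9: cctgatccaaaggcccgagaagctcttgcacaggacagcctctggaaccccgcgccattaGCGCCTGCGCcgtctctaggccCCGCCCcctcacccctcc

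The 4 promoters had no motif in common. In these 100 bases MRPL12 held no match, MRPL41 held CCAAT boxes (CCAAT) on both strands and a GC box (GGGCGG), MRPS26 held an ETS core (CCGGAAG) and a GC box, and MRPS9 held an NRF1 core (GCGCA and GCGC with any 1 base between them) and a GC box. A match is a description of letters and not a binding site. ETS cores are read by GABPA and related factors, and NRF1, YY1 and GABPA are known regulators of nuclear genes for mitochondria.

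Over the family, ETS cores stood out among the motifs searched. Within the 300-base windows, searched on both strands, an ETS core lay in 29 of 69 promoters (42.0%), against 14.4% of 15314 protein-coding promoters. The share was 40.5% in the large and 44.4% in the small subunit. The YY1 motif, spelled in capitals in the next set of lines, lay in 10 promoters (14.5%), against 1.40% of protein-coding promoters, and the NRF1 core in 8 (11.6%), against 8.60%. Other shares were nearer to each other, at 8.70% and 8.87% for the E-box (CACGTG), 27.5% and 23.8% for the HIF core (ACGTG, which also lies inside the E-box) and 60.9% and 59.3% for the GC box. CCAAT boxes lay in 28.99% of the family and 36.6% of protein-coding promoters, and TATAAA in 2.90% and 9.59%.

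The YY1 motif lay around the start codon in most of its genes. In 9 of the 10 genes it lay after the start of transcription on the gene's strand, and in all 9 its ATG was an annotated start codon in GENCODE 29. The motif lay there in MRPL22, MRPL38, MRPL50, MRPS10 and MRPS24 too, whose lines are not shown. The lines give 25 bases around it in 4 of the 9 genes, with the motif in capitals, at chr15:88467362-88467386 on the minus strand for MRPL46, chr6:43687764-43687788 on the minus strand for MRPS18A, chr6:30617857-30617881 on the plus strand for MRPS18B and chr5:44808954-44808978 on the plus strand for MRPS30.
MRPL46: gaacgaAAGATGGCGGCgcccgtaa
MRPS18A: tttttgAAGATGGCGGCcctcaagg
MRPS18B: tacgtcAAGATGGCGGCgtctgtat
MRPS30: cgggcaAAGATGGCGGCggccaggt

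Genes with and without these motifs had medians close to each other, with no test made. The median log2 change was 0.075 in the 28 tested genes with an ETS core and 0.094 in the 40 without. It was 0.058 in the 10 with the YY1 motif and 0.082 in the 58 without. It was 0.11 in the 8 with an NRF1 core and 0.077 in the 60 without. Of the factors themselves, none of the following passed the threshold in limma: NRF1 had a log2 change of 0.096, GABPA −0.12, YY1 0.067 and MYC 0.018.

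**Figure D5:**
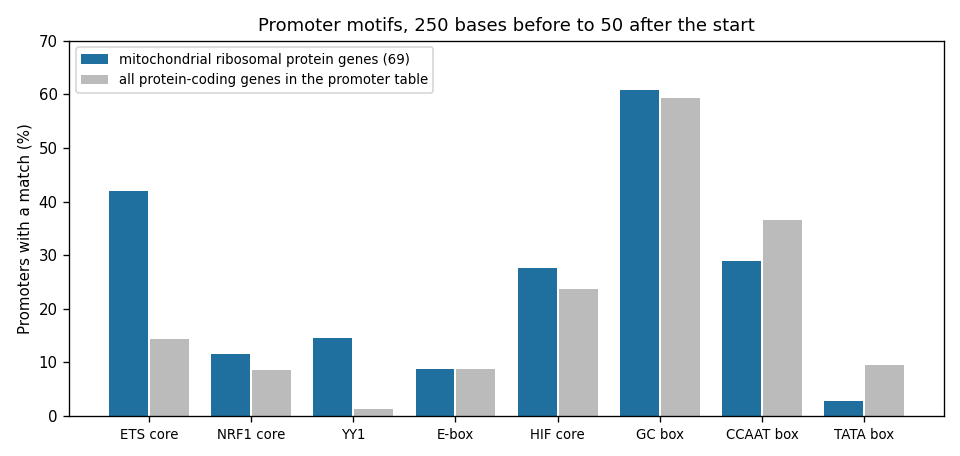
Share of promoters with at least 1 match to each motif, in 69 mitochondrial ribosomal protein genes (blue) and in all protein-coding genes of the promoter table (grey), within 250 bases before to 50 after the start. The ETS core (42.0% and 14.4%) and the YY1 motif (14.5% and 1.40%) differ most by ratio, with the family higher.

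Many of these genes start back to back with another gene. A protein-coding partner that starts within 1000 bases in the opposite direction, without overlap, was found for 17 of the 78 genes (21.8%), against 7.38% of 19874 protein-coding genes in GENCODE 29. MRPL46 and MRPS11 are each other's partner, 34 bases apart, so a large and a small subunit gene share that stretch. MRPS11 had a log2 change of −0.025, while MRPL46 had the change of 0.37 given above on few reads. MRPL36 and NDUFS6, a subunit of respiratory complex I, start 34 bases apart and had changes of 0.16 and 0.16, and MRPL47 and NDUFB5, also of complex I, start 36 bases apart and had changes of 0.15 and 0.026. Over the 17 partners the median log2 change was −0.025. Of them 7 were above 0, against 50.3% of all tested genes, and 0 passed the threshold in limma, against 1.49%. These pairs were named after their values were seen.

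The other genes of mitochondrial translation were measured beside the family. The 5 mitochondrial ribosomal proteins with other symbols were all above 0, with log2 changes of 0.14 for GADD45GIP1, 0.12 for AURKAIP1, 0.088 for CHCHD1, 0.086 for DAP3 and 0.070 for PTCD3. None passed the threshold in limma, edgeR or DESeq2, and 3 reached an unadjusted p under 0.05. Of 35 tested assembly factors of the mitochondrial ribosome 0 passed in any of these tools, with 3 higher and 1 lower at an unadjusted p under 0.05 and a median of 0.025. Of 18 translation factors 0 passed, with 1 higher at that level and a median of 0.033, and of 22 mitochondrial aminoacyl-tRNA synthetases 0 passed, with 2 higher and a median of 0.0090. Of all genes with an adjusted p, 0.692% were higher and 0.8% lower in limma, 1.53% and 1.76% in edgeR, and 3.49% and 4.49% in DESeq2. At an unadjusted p under 0.05 in limma, 5.63% were higher and 6.12% lower. In lists this short a count of 0 is near those shares and does not set a list apart from all genes. The same shares hold for the lists in the paragraphs below.

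Genes for transcription and RNA handling in the organelle numbered 24, with 0 past the threshold in limma and edgeR, 1 higher in DESeq2, 5 higher and 1 lower at an unadjusted p under 0.05, and a median of 0.032. Of 30 tested genes for protein import 0 passed in limma and edgeR, 2 were higher in DESeq2, 7 were higher at an unadjusted p under 0.05, and the median was 0.081. Of 15 regulators of nuclear genes for mitochondria, 0 were higher and 1 lower in limma, edgeR and DESeq2 alike, with 0 higher and 4 lower at an unadjusted p under 0.05 and a median of −0.043. In limma the lower one was HCFC1, a cofactor of promoter-binding factors, which was at 10805 ± 861 normalised reads in SLC2A3 cells, against 14395 ± 1108 in empty vector cells (SD, n = 3 each; log2 change −0.41, limma adjusted p = 2.20e-05).

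Most RNAs made inside mitochondria had changes below 0. Of 15 ribosomal and messenger RNAs of the mitochondrial genome, 13 had a log2 change below 0, with a median of −0.079. In limma 0 were higher and 1 lower, in edgeR 1 higher and 3 lower, and in DESeq2 0 higher and 2 lower, with 1 higher and 8 lower at an unadjusted p under 0.05. Whether they differ from the nuclear family was not tested. MT-ND4L passed the threshold and was lower, at 11473 ± 794 normalised reads in SLC2A3 cells and 13155 ± 1013 in empty vector cells (SD, n = 3 each; log2 change −0.20, limma adjusted p = 0.0407). The RNA of the small mitochondrial subunit, MT-RNR1, had a log2 change of 0.16 (limma adjusted p = 0.0685), and that of the large subunit, MT-RNR2, had a log2 change of −0.0038. Mitochondrial RNAs carry short poly(A) tails, and how messenger RNA was selected is not stated in the labels.

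The proteins of the cytosolic ribosome moved in the same direction. Of 85 tested cytosolic ribosomal protein genes, a comparison added after the data were seen, 24 were higher and 0 lower in limma (0.692% of all tested genes were higher), 36 higher and 0 lower in edgeR (1.53%), and 49 higher and 0 lower in DESeq2 (3.49%), with 0 lower at an unadjusted p under 0.05. In 62 of them every SLC2A3 library lay above every empty vector library, as in 8.04% of all genes. Their median log2 change was 0.11, and that of the mitochondrial family 0.081, with median SEs of 0.036 and 0.062. Whether the families differ in size of change was not tested.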

How the data were processed

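RNA was extracted with Trizol and made into libraries with a NEBNext Ultra II Directional kit, per the labels' protocols. BWA, TopHat2 and hg38 appear in the submitters' processing notes without roles. The deposited values are a normalised signal: 100% were whole multiples of 1 step per library within 0.001 reads, that is, gene counts the authors divided by 1 factor per library (0.936 to 1.08). Reads were recovered from that step for the count tests.

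Genes entered the test with a value of 1 or more in 3 or more libraries. Limma 3.58.1 (R 4.3.3) compared the 2 groups on log2(value + 1) with no covariate and with Benjamini-Hochberg adjustment over 28015 genes. A pseudocount of 1 understates the change of low genes. Alternatives were edgeR 4.0.16 and DESeq2 1.42.0 on recovered reads, limma-voom, other scalings, filters and pseudocounts, a replicate block, a length and GC trend removed, and libraries left out.

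Symbols matched 60641 of 60660 IDs. Coordinates and exon lengths are from GENCODE 29, which may differ from the authors' annotation. GC content is that of the longest transcript of each gene. Members, lists and tests were chosen with earlier results of these data known. Named are the members past the threshold, the 6 largest changes in each direction, the 4 highest and lowest levels per kilobase, MRPS30, MRPS36 and the MRPS18 genes. Others were chosen after their values were seen. Up to 4 members past the threshold are named per other list.

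The labels do not call replicates separate cultures, and p-values therefore reflect the spread between these samples alone, which may be technical. No pair of replicates agreed within sampling noise (chi-square per gene 3.50 to 6.78). All 6 libraries were kept.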

Additional observations from a re-analysis of the deposited data

How the results depend on the processing

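The 5 genes higher in SLC2A3 cells became 3 with a pseudocount of 0.1 and ranged from 2 to 6 when each library was left out, with 3 without SLC2A3 replicate 1, 2 without SLC2A3 replicate 2 and 3 without empty vector replicate 3. The cause was not tested. The count of lower genes was 0 in all 21 fits. The large subunit median ranged from 0.078 to 0.113 and the small subunit median from 0.059 to 0.077 when each library was left out, and the small subunit median was 0.091 with both libraries numbered 2 left out. SLC2A3 ranged from 1.68 to 1.74. Among the named genes the log2 change turned sign, never past the threshold, for 5. Over the family 65 genes above 0 became 60 with the length and GC trend removed. With each library left out, MRPL38 ranged from −0.086 to 0.18, MRPS18A from −0.099 to 0.022, MRPS18C from −0.037 to 0.12, MRPS24 from −0.29 to 0.12 and MRPS36 from −0.042 to 0.074. Without both libraries numbered 2, MRPL38 was at −0.11 and MRPS24 at 0.068. With the length and GC trend removed MRPS36 was at −0.043, with or without a replicate block. For named genes, 432 values under an alternative kept direction and side of the threshold and 14 lost the call.

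Libraries share replicate numbers across groups, but their deviations did not correlate (−0.079, −0.0024 and −0.0030 over 13290 genes). No pairing by number was thus seen, but with so few libraries per group this check cannot exclude one. With a replicate block 5 genes were higher and 0 lower, and 4 were higher with the length and GC trend also removed. No library was closest to the one of its own number.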
